A study of Mus musculus with 16 samples.

Results

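The regions described here are fixed 10-kb windows of chromosomes 1 to 19 that lie at least 50 kb from every gene in the deposited gene table and hold at least 50 methylation calls in the PBAT library of 60–65 μm oocytes. There were 82631 such far windows, and 73253 of them had enough calls, out of 233748 measured windows in all (31.3%). Of the 9378 far windows with fewer calls, 6159 consisted of unknown bases only. The samples were oocytes of wild-type C57BL/6 mice (C57BL/6Babr in the study's methods), taken before puberty and pooled by diameter, so that larger oocytes also came from older animals and size and age cannot be told apart. PBAT (post-bisulphite adaptor tagging) samples the whole genome and was available as 1 library of 60–65 μm oocytes with no replicate. RRBS (reduced representation bisulphite sequencing) reads the ends of fragments cut by MspI at CCGG and was available as duplicate libraries (A and B) of the 40–45 μm, the 50–55 μm and the 60–65 μm class. RNA-seq, in duplicate for these classes and for 10–30 μm oocytes and as 1 sample of GV oocytes, was used for the positions and levels of genes.

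Mouse oocytes are nearly free of CpG methylation when they begin to grow and acquire it during growth through the enzyme DNMT3A and its cofactor DNMT3L. In mature oocytes much of the methylation lies over transcribed gene bodies, and the sequence between genes stays largely unmethylated, unlike in most somatic cells. Exceptions between genes include transcripts missing from a gene list, alternative upstream starts of known genes, and repeats such as endogenous retroviruses that kept methylation from before growth.

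The sequences below show what was read at both ends of the range and in windows that were followed over growth. Each is the 200-base stretch of its window with the most covered CpG cytosines (in PBAT for the first 5 and in 60–65 μm RRBS library A for the last 2), on the plus strand of GRCm38, with every CpG in capitals.

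chr12:26206181-26206380, in the window with the highest lower confidence bound: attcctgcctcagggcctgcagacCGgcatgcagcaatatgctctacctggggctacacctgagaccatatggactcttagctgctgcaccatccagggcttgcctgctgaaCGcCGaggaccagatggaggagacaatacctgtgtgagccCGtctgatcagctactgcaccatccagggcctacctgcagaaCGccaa
chr2:149640801-149641000, in the window with the second highest lower bound: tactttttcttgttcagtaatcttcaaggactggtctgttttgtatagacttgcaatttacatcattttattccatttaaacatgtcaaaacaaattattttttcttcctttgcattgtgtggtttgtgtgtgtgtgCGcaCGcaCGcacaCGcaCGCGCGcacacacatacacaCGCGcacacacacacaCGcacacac
chr1:143110931-143111130, in the window with the third highest lower bound: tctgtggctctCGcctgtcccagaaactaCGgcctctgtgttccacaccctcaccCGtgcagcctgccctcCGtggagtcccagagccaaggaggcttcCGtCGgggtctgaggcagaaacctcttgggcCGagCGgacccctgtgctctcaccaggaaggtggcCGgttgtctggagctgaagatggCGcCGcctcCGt
chr14:95257971-95258170, in the window with the lowest upper confidence bound: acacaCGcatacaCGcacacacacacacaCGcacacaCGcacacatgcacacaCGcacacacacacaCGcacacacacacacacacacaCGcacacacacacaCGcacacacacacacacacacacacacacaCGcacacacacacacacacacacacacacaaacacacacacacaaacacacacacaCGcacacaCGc
chr14:99772961-99773160, in the window with the second lowest upper bound: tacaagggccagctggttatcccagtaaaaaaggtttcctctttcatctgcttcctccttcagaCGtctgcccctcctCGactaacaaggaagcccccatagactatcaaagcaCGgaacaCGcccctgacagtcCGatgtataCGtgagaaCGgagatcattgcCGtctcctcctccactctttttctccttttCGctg
chr12:99553511-99553710, in the window with the largest RRBS rise: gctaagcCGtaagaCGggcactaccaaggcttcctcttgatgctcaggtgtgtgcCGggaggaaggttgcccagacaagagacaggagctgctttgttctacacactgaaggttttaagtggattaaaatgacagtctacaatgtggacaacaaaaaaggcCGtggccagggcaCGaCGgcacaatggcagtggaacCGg
chr13:99064011-99064210, in the window with the second largest RRBS rise: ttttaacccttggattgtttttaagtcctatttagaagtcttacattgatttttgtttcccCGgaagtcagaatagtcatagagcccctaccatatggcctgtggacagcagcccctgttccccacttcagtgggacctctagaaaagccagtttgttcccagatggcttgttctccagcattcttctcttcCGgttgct

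The first stretch had 89.1% methylated of 92 PBAT calls (Wilson 95% interval 81.1 to 94.0%), the second 95% of 20 calls and the third 87.4% of 206 calls. The fourth stretch, a repeat of CA with scattered CpGs, had 0 methylated calls of 111 (interval up to 3.35%), and the fifth had 0 of 39 (interval up to 8.97%). High and low stretches thus both included CA repeats with several CpGs, of which all bases in the fourth and 116 in the second are soft-masked, that is, marked as repeat or low-complexity sequence in the reference. The last 2 stretches each hold 2 CCGG sites and are described with the RRBS results below.

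The 7 methylation libraries held between 30000113 and 99039028 calls, of which 17576758 PBAT calls fell in the far windows, with a median of 171 per window. The median sets the precision: intervals and limits given here cover counting error only, and calls from 1 window share reads. On mitochondrial DNA, which served as a gauge of unconverted or misread cytosine, the PBAT library had 3.45% methylated calls and the RRBS libraries 1.08 to 1.46%. The RNA libraries of growing oocytes carried 8 oocyte markers at a summed level of 2740 to 3809 RPKM, against 0.693 to 2.84 RPKM for 7 granulosa cell markers, 0.353 to 2.81 RPKM for 4 theca and stroma markers and 0.0314 to 0.157 RPKM for 2 blood markers. Of the granulosa markers the aromatase gene Cyp19a1 was the highest at 60–65 μm (1.25 and 1.04 RPKM), and the other 6 were below 1 RPKM. The follicle-stimulating hormone receptor gene Fshr was at most 0.238 RPKM and the leukocyte gene Ptprc at most 0.00823 RPKM. One far window, chr17:39840001-39850000, which overlaps the ribosomal RNA pseudogene Rn18s-rs5, held 256130 PBAT calls (1.46% of those in far windows) and 24.7 to 33.0% of the RRBS calls in far windows. Both 50–55 μm RRBS libraries stood apart in windows below 25% methylation, as given with the RRBS results.

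Most far windows were weakly methylated in 60–65 μm oocytes. The median window had 11.97% methylation, the interquartile range was 7.79 to 20.4%, and 5% of the windows lay below 4.39% and 5% above 51.7%. The most frequent level was 7.5 to 10%, with 16.3% of the far windows. Of the 73253 windows, 28756 (39.3%) were below 10%, 30605 (41.8%) were at 10 to 25%, 9809 (13.4%) at 25 to 50%, 3793 (5.18%) at 50 to 75% and 290 (0.396%) at 75% or more. The share below 10% was much the same in all measured windows, at 39.0%. It was 34.4% in windows that overlap a listed gene and 49.1% in gene-free windows within 50 kb of one. The medians of these classes were 12.8, 17.4 and 10.1% in that order. There were 54 far windows with no methylated call. All calls of the far windows pooled gave 19.2%, above the median window. The 4083 windows at 50% or more held 7.12% of the calls and 22.3% of the methylated calls, and the 69170 others pooled gave 16.1%. Without the window with the most calls the pooled level was likewise 19.2%.

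The 4083 windows at 50% or more made up 5.57% of the far windows (Wilson 95% interval 5.41 to 5.74%), against 14.2% of all measured windows. The share was 24.2% in windows that overlap a listed gene and 4.72% in gene-free windows within 50 kb of one. Far windows were thus far below gene windows on every autosome in this share, with 3.29 to 8.57% against 20.9 to 28.9%. Against the gene-free windows nearer to genes the share was higher on 13 of 19 autosomes and lower on the other 6, with differences between -1.14 and 3.37 percentage points (SD over autosomes 1.27). The median level was higher far from genes on 18 of 19 autosomes, by up to 3.52 percentage points, and lower on chromosome 7, by 1.72 points (-1.72). Since there was 1 PBAT library, these differences have no replicate check, and the spread over chromosomes describes this library.

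**Figure D1:**
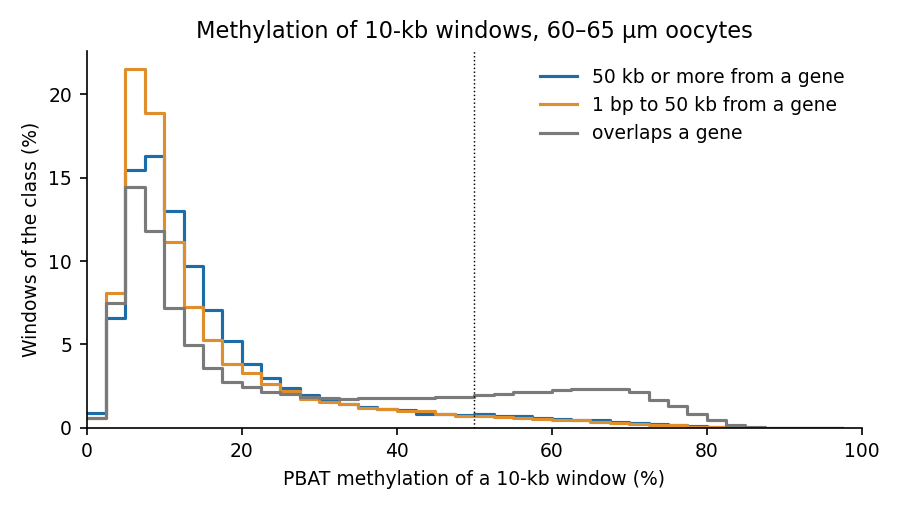
Distribution of PBAT methylation (x axis, %) over 10-kb windows in 60–65 μm oocytes, as the percent of windows of each class in steps of 2.5 points; lines show the 73253 far windows, the 49730 gene-free windows within 50 kb of a gene and the 110765 windows that overlap a gene, and the dotted line marks 50%. Both gene-free classes have a single peak below 10% with a long tail, whereas gene windows have a second, broad mode above 50%.

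Chromosome 15 had the highest share of methylated far windows (307 of 3581, 8.57%), followed by chromosome 10 (7.76%) and chromosome 11 (7.21%). Chromosome 19 had the lowest (40 of 1217, 3.29%), followed by chromosome 7 (3.85%). The medians of the chromosomes differed less, from 10.5 to 13.2%.

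Methylation varied with distance from genes in 2 ways. The median rose without a break from 10.0% in windows under 10 kb from a gene to 10.8% at 50 to 100 kb, 12.4% at 200 to 500 kb and 14.0% beyond 1 Mb. The share of windows at 50% or more rose from 4.32% under 10 kb to 5.96% at 200 to 500 kb and then fell back to 4.96% at 500 to 1000 kb and 3.33% beyond 1 Mb (104 of 3127 windows, interval 2.75 to 4.01%). Taken chromosome by chromosome, the share at 200 to 500 kb was above that under 10 kb on 15 of 19 autosomes (mean difference 1.55 points, SD 2.02). The share beyond 1 Mb was below that at 200 to 500 kb on 14 of the 17 autosomes with such windows (mean difference -2.17 points, SD 3.47). Soft-masked content moved with distance beyond 50 kb, from a median of 30.9% of the bases at 50 to 100 kb to 43.3% beyond 1 Mb, and CpG number moved the other way, from a median of 68 to 44 CpGs per window. With soft-masked sequence left out, pooled methylation rose from 12.3% under 10 kb to 15.1% at 100 to 200 kb and stayed between 15.2 and 15.6% beyond. At the limit of the rule itself nothing changed abruptly: windows 40 to 50 kb from a gene had a median of 10.4% and 5.23% of them were at 50% or more, and windows 50 to 60 kb away had 10.6% and 5.64%. Far windows with 40 to 49 calls, just too few to enter, had a median of 12.5% and a share of 3.76%, and those with 50 to 59 calls had 12.1% and 3.46%.

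**Figure D2:**
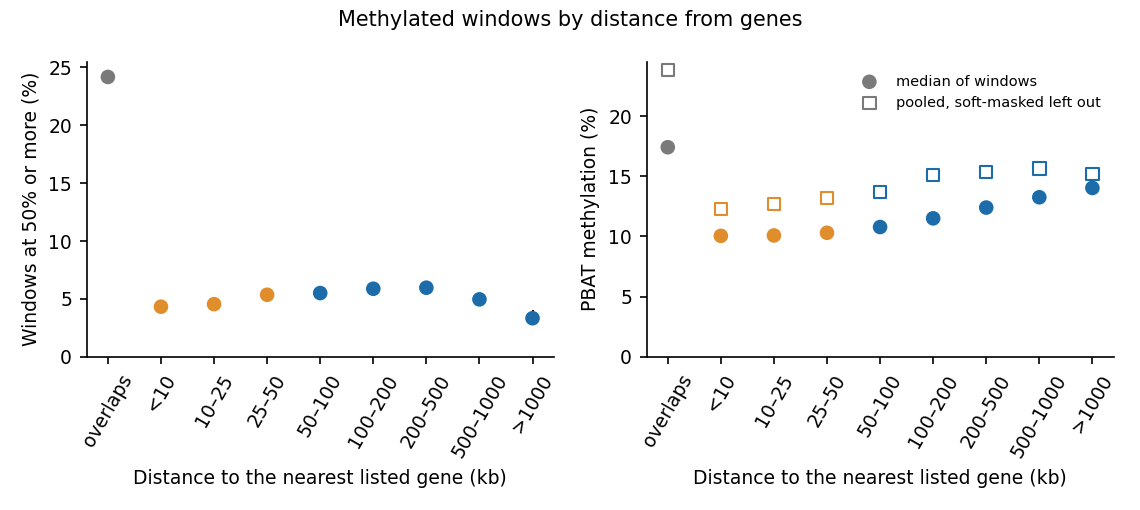
Share of windows at 50% or more (left, %, with Wilson 95% intervals that are mostly smaller than the points) and methylation level (right, %; filled points, median window; open squares, pooled calls outside soft-masked sequence) by distance to the nearest listed gene in kb. Grey marks windows that overlap a gene, orange those within 50 kb and blue the far windows. The share peaks at 5.96% at 200 to 500 kb, while the median keeps rising to 14.0% beyond 1 Mb.

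The low background depended on repeat content. Far windows with less than 20% soft-masked bases had a median methylation of 8.43%, and 62.6% of them were below 10%. Those with 80% or more soft-masked bases had a median of 23.5%, and 4.07% of them were below 10%. Over all far windows, calls in soft-masked sequence were 25.3% methylated and those in the remaining sequence 14.7%. The sequence outside the masked bases also rose with the window's masked share, from 13.4% in the least to 28.2% in the most repeat-rich windows, so both kinds of sequence moved in one direction. Reads from repeats can be assigned to the wrong copy, and the part of this in the difference was not tested. The share of windows at 50% or more changed less, between 4.89 and 7.11% in the 4 lower bins, and reached 11.1% in the most repeat-rich.

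**Figure D3:**
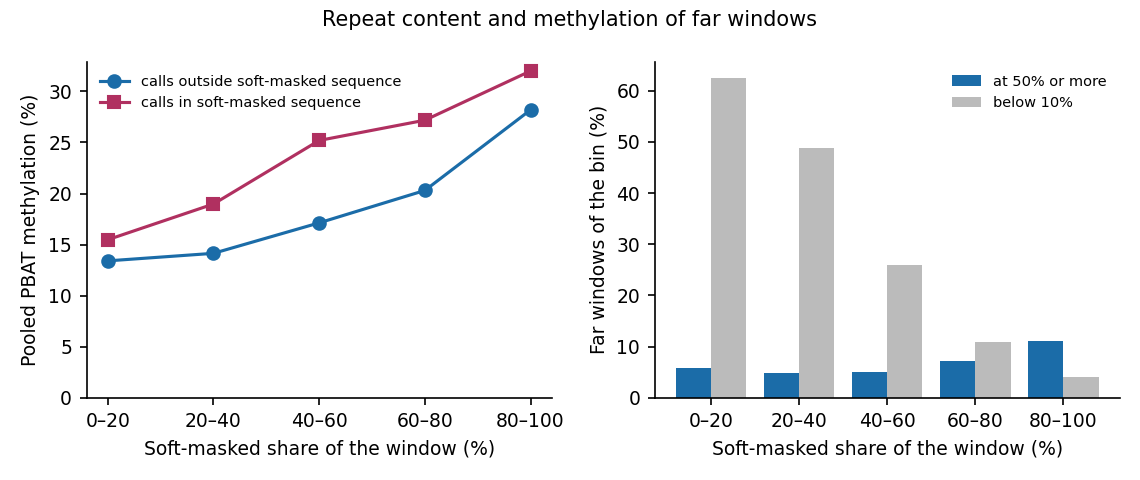
Left: pooled PBAT methylation (%) of calls inside and outside soft-masked sequence in far windows grouped by the soft-masked share of their bases (x axis, %). Right: percent of far windows in each group at 50% or more (blue) and below 10% (grey). The windows below 10% fall from 62.6 to 4.07% across the groups, while those at 50% or more lie between 4.89 and 11.1%.

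The windows at 50% or more held more CpGs and more repeats than those below 10%, with the same GC content. They had a mean of 77.8 CpGs against 66.3 (difference 11.5, SD over autosomes 4.87, positive on all 19) and 42.0% soft-masked bases against 30.1% (difference 11.9 points, SD 3.999, positive on all 19). GC content was 40.4% in both. Neither was particular to them, since the windows at 10 to 25% had 43.5% soft-masked bases and those at 25 to 50% had 48.8% and a mean of 74.2 CpGs. The 290 windows at 75% or more had 34.0% soft-masked bases, 39.4% GC and a mean of 56.3 CpGs. Their differences from the windows under 10%, of 3.91 points of soft-masked bases and -10.01 CpGs, lay within the SDs over autosomes of 6.35 and 10.6. CpG number mattered mainly at the top of its range. The share at 50% or more was 4.01 to 4.97% in windows with fewer than 100 CpGs and 10.7% in the 8679 windows with 100 to 200 CpGs. In the 179 windows with 200 CpGs or more it reached 43.6%, and the median soft-masked share there was 75.3%. Within the windows at 50% or more, soft-masked sequence (59.6%) and the remaining sequence (60.6%) were methylated alike. In windows below 10% the values were 8.12 and 6.48%. Both kinds of sequence enter the level that grouped the windows, so the grouping pulls their values together.

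In the 1-kb pieces of each window with at least 10 calls, methylated windows were mostly, but not evenly, methylated. Of 24538 pieces in windows at 50% or more, 70.5% were themselves at 50% or more and 3.19% were below 10%. Of 2886 such windows with 5 or more measured pieces, 421 (14.6%) had every measured piece at 50% or more and 551 (19.1%) had at least 1 piece below 10%. In windows below 10%, 0.0753% of 175208 pieces reached 50%, and 111 of 19624 windows (0.566%) had any such piece. The pieces hold the same calls that set the window's level, so these shares are partly fixed by the grouping. Some windows between these levels held a methylated piece in a lower surrounding: 69.3% of the windows at 25 to 50% had at least 1 piece at 50% or more, and 64.8% had at least 1 below 10%.

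Methylated far windows lay beside each other. Of the measured far windows directly next to one at 50% or more, 43.5% (3332 of 7659) were also at 50% or more, against 0.823% (442 of 53703) next to a window below 10%. The 4083 windows formed 2417 runs, of which 1604 were single windows, 813 had 2 or more and 117 had 5 or more. The runs of 5 or more held 745 windows. Only 17 of the 4083 windows (0.416%) were linked to a listed gene by an unbroken chain of windows at 50% or more, and 177 (4.34%) by a chain of windows at 25% or more. The others were separated from the listed genes by less methylated or unmeasured windows. A window at least 50 kb from every gene can be linked only through several such windows in a row. The distance rule itself thus keeps these shares low, and they are a description.

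The longest runs spanned 120 kb. The run at chr15:67390001-67510000 was 68.3% methylated over 2174 calls, with single windows from 54.9 to 84.4%. It lay 276 kb from St3gal1, which encodes a sialyltransferase, and 574 kb from Zfat, which encodes a zinc-finger protein, and overlapped no RefSeq gene. The run at chr1:143130001-143250000 was 66.996% methylated over 2227 calls, with windows from 50.6 to 81.7%, 349 kb from Cdc73, a component of the PAF1 complex that travels with RNA polymerase II. It too overlapped no RefSeq gene. Of the 3 runs of 100 kb, the most methylated (69.2% over 3247 calls) was at chr4:24200001-24300000 and overlapped the lncRNA gene Gm27243 and the pseudogene Gm11892, 196 kb before Mms22l, a DNA repair gene.

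RRBS calls were few in the chr15 run and more numerous in the other 2. In the chr1 run the RRBS values of A and B, in order of size, were 51.6 and 36.5%, then 64.0 and 47.9%, then 79.4 and 85.6% (194 to 583 calls). In the chr4 run they were 53.1 and 55.7%, then 60.4 and 67.2%, then 77.6 and 70.7% (223 to 749 calls). Both runs thus had calls at sites that were already methylated in the smallest oocytes, and both libraries at 60–65 μm lay above both at 40–45 μm. Another 100-kb run, chr10:110330001-110430000 in the RefSeq extent of Nav3, began low instead, with 3.77 and 4.73%, then 44.5 and 36.0%, then 76.5 and 63.3% (375 to 676 calls).

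At the 186 edges of runs of 5 or more windows with measured far windows on both sides, pooled methylation changed within a few kb. It was 61.7% in the 5 kb inside the edge and 34.995% in the 5 kb outside, against 65.6 and 36.2% over 30 kb on either side. Because the runs were defined by the same values, the step itself is a description. The surroundings of long runs were at 37.8% between 20 and 30 kb outside, against 19.2% for all far windows pooled.

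**Figure D4:**
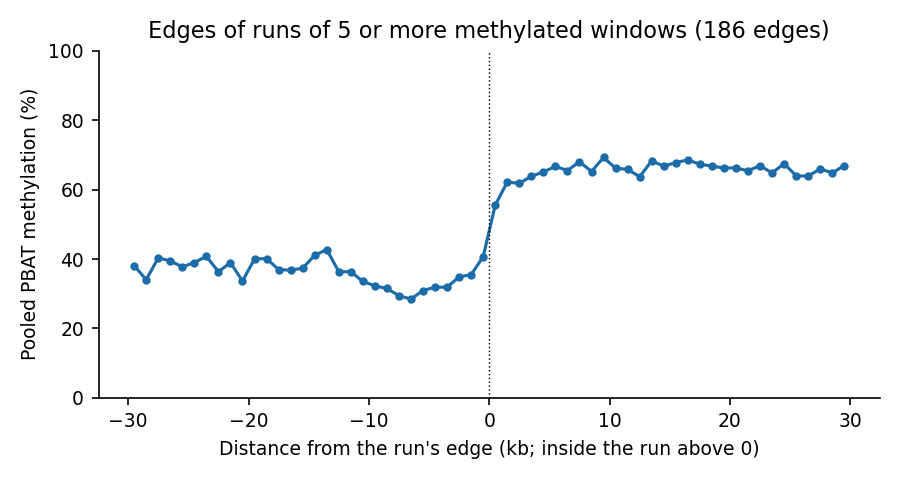
Pooled PBAT methylation (y axis, %) of 1-kb pieces from 30 kb outside (below 0) to 30 kb inside (above 0) the edges of runs of 5 or more far windows at 50% or more; each point pools the same 186 edges. The level moves from 34.995% in the last 5 kb outside to 61.7% in the first 5 kb inside.

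The 6 windows with the highest lower confidence bounds were read as single loci. The window at chr12:26200001-26210000 had 285 methylated of 332 calls (85.8%, interval 81.7 to 89.2%) and 8 measured 1-kb pieces from 66.7 to 100%. It overlaps the RefSeq lncRNA gene Gm29687 and lies between Id2, which encodes an inhibitor of DNA-binding transcription factors (1104 kb away), and Rnf144a, which encodes a ubiquitin ligase (96.8 kb away). The window at chr2:149640001-149650000 had 90 of 101 calls methylated (89.1%, interval 81.5 to 93.8%), the highest level of any far window, between the listed genes Cst10 and Gm14133. Its neighbours on either side were at 36.5 and 21.3%, so that it stood alone.

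The window at chr1:143110001-143120000 had 438 of 519 calls methylated (84.4%, interval 81.0 to 87.3%) and was separated from the 120-kb run near Cdc73 by 1 window at 48.95%. The window at chr13:47400001-47410000 (83.1% of 468 calls) overlaps an annotated snoRNA and lies between Rnf144b, encoding another ubiquitin ligase, and 4931429P17Rik. The window at chr4:56590001-56600000 (84.2% of 272 calls) lies between 2310081O03Rik and Actl7b, a testis-expressed relative of actin. The window at chr1:7360001-7370000 (82.3% of 531 calls) overlaps the lncRNA gene Gm26901 between Gm9826 and Sntg1, which encodes a syntrophin, and its neighbours were at 77.3 and 81.3%. The soft-masked share was 73.3% in this last window and 21.3 to 42.2% in the other 5.

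The listed genes beside these windows were expressed weakly in the oocyte. At 60–65 μm, Id2 was at 0.816 and 0.853 RPKM, Rnf144a at 0.186 and 0.192 RPKM, Cdc73 at 0.257 and 0.262 RPKM and Sntg1 at 0.00939 and 0.00607 RPKM. Cst10 and AC110527.1, on the other side of the chr1:143110001 window, were listed at 0 in every growing oocyte library. On either side of the chr15 run, St3gal1 was at 0.0134 and 0.0177 RPKM and Zfat at 1.18 and 1.28 RPKM, and on either side of the chr4 run Gm11884 was at 0.0890 and 0.0431 RPKM and Mms22l at 3.16 and 2.95 RPKM. Over all far windows, the nearest listed gene reached 1 RPKM beside 28.8% of the windows at 50% or more and 27.0% of those below 10%. It reached that level beside 22.9% of the windows at 10 to 25% and 25.5% of those at 25 to 50%. Windows at 50% or more lay downstream of their nearest gene in 51.0% of cases, and windows below 10% in 51.7%. Where the nearest gene reached 1 RPKM, these shares were 45.1 and 50.9%. They were then 52.7% in windows at 10 to 25% and 52.4% in those at 25 to 50%. The difference was not tested.

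The 3 windows with the lowest upper bounds had 53, 154 and 48 covered cytosines, against 52 to 132 in the 6 highest. The window at chr14:95250001-95260000 had 2 methylated of 632 calls (0.316%, interval 0.0868 to 1.15%), but only 3 pieces of 1 kb had 10 or more calls, and the window holds the CA repeat shown above. The window at chr14:99770001-99780000, which overlaps the snRNA gene Gm22970 and lies between the transcription factor genes Klf5 and Klf12, had 3 of 335 calls methylated (0.896%) with 8 measured pieces from 0 to 4.76%. The window at chr10:106120001-106130000 had 0 of 130 calls methylated, which allows up to 2.87%. These values lay below the 3.45% read on mitochondrial DNA. RRBS had few calls in these windows. At chr14:95250001 it read 100% of 7 calls in 50–55 μm library B. Library A there read 0% of 1 call at 50–55 μm and 0% of 1 call at 60–65 μm. At chr14:99770001 RRBS read 55.6% of 9 calls in 50–55 μm library A, and the chr10 window had no RRBS call.

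RefSeq, which holds more genes than the deposited table (46709 against 24483 on chromosomes 1 to 19), placed some of the methylated far windows inside genes. Of the 4083 windows at 50% or more, 1155 (28.3%) overlapped a RefSeq gene, against 23.1% of the windows below 10%. Over all far windows the share was 21.1%. Protein-coding genes were overlapped by 342 windows (8.38%), against 3.29% of those below 10% and 3.60% of all far windows. For lncRNA genes the share was 15.2%, against 15.7% below 10%, 10.5% at 10 to 25%, 11.3% at 25 to 50% and 12.9% in all far windows, and for pseudogenes it was 5.09%, against 3.77% below 10% and 4.07% in all far windows. These shares have no replicate check. Among the 290 windows at 75% or more, 39.0% overlapped a RefSeq gene, 12.1% a coding and 23.1% an lncRNA gene. In 266 of the 342 windows in coding genes the gene was itself in the deposited table with another extent at least 50 kb away. For 141 of these 266 (53.0%) it reached 1 RPKM at 60–65 μm. That share was 18.7% of 716 such windows below 10% and 29.7% of 1866 such windows over all levels. These windows are not independent, since 34 listed genes carried the 266 and 121 of the 141 lay in 6 genes. Counted by gene, 16 of the 34 reached 1 RPKM, against 25 of 86 genes with windows below 10%, and a gene can be in both counts. Far windows that were also 50 kb from every RefSeq gene numbered 30547, and 1531 of them (5.01%) were at 50% or more, with a median over all of 12.6%.

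The 13 coding genes with 10 or more far windows at 50% or more, chosen after their values were seen, had long RefSeq extents, and 12 of them were in the deposited table. Of these, 6 were at 1 RPKM or more at 60–65 μm and 6 below. Chrm3, which encodes a muscarinic acetylcholine receptor, spans 486 kb in RefSeq and 1.77 kb in the deposited table. It held 29 windows at 50% or more among 44 far windows and was at 2.63 and 2.56 RPKM at 60–65 μm. Zfhx3, a homeobox transcription factor gene, held 25 of 39 (1.79 and 1.20 RPKM), and Nav3, a neuron navigator gene, held 23 of 40 (4.38 and 4.16 RPKM). Celf2, which encodes an RNA-binding protein, held 16 of 20, at 1.52 and 1.35 RPKM. Nrg1, which encodes a growth factor, held only 18 of 75 at 1.29 and 1.30 RPKM, and Samd5 held 10 of 22 at 1.09 and 1.12 RPKM. Among the genes below 1 RPKM, Syne1 held 13 of 15 at 0.345 and 0.349 RPKM. Gm11639 held 16 of 20 and was listed at 0. Its listed extent lies outside its RefSeq extent, so they were matched by symbol alone. Rbfox1, encoding a splicing factor, held 27 of 87 at 0.0298 and 0.0280 RPKM, and Robo2, encoding an axon guidance receptor, held 14 of 95 at 0.00576 and 0.00703 RPKM. Rarb, a retinoic acid receptor gene, held 12 of 45 at 0.0219 and 0.0437 RPKM, and Zfp804b, a zinc-finger gene, held 10 of 18 at 0.0509 and 0.0606 RPKM. Large and small methylated shares thus occurred on either side of 1 RPKM. The level is that of the gene as listed in the deposited table, and whether the methylated stretch was itself transcribed was not tested.

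The RRBS libraries allowed the same windows to be followed over growth. All far windows pooled read 10.7 and 10.6% in the smallest class (A and B), 15.1 and 15.3% in the middle class and 12.5 and 11.5% in the largest, a difference of 1.38 points between the end classes with the highest values in the middle. Without the window with the most calls they read 9.07 and 8.03%, then 14.3 and 14.4%, then 12.5 and 11.7%, a difference of 3.53 points. Windows were grouped by the PBAT level, which the RRBS libraries did not set, although the PBAT library is of the largest size class. Grouping by the level at the end of growth favours a rise in the windows at 50% or more and none in those below 10%, so the values of these groups are a description. In windows at 50% or more, pooled RRBS methylation was 27.0 and 27.3% in the smallest class (A and B), 43.8 and 46.6% in the middle class and 57.2 and 57.8% in the largest. The 3 classes did not overlap, and the mean difference between the largest and the smallest oocytes was 30.3 percentage points (27.2% ± 0.203 against 57.5% ± 0.423, SD, n = 2 each). The two-sided exact permutation test over 90 assignments gave p = 0.0222, the smallest possible, and 0.0556 after adjustment over 5 comparisons, which misses 0.05. This p is no independent support for a rise, given the grouping, and with the 4 libraries of the end classes alone it could not go below 0.333. In windows at 25 to 50% the values were 23.2 and 22.1%, then 28.7 and 32.4%, then 31.4 and 32.4%, a difference of 9.27 points (exact permutation p = 0.0667, adjusted 0.111).

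In windows below 10% the RRBS values in order of size were 2.39 and 1.66%, then 6.52 and 5.15%, then 2.94 and 1.85%. The smallest and the largest class overlapped, with a difference of 0.374 points (exact permutation p = 0.911), and both 50–55 μm libraries lay above all 4 others. Over cytosines with calls in all 6 libraries, library A at 50–55 μm read 1.78% and library B 3.86%, and the other libraries 1.62 to 2.504%, so that A no longer stood above them. As a mean over cytosines with at least 5 reads, A read 3.05% and B 11.4%, against 1.97 to 2.47% in the others. The differences between the largest and the smallest class do not use the 50–55 μm libraries, but the permutations do. The cause of the higher values was not tested. In windows at 10 to 25% the largest class was the lower one, with 12.1 and 10.4% against 12.6 and 13.6%, and both 50–55 μm libraries again lay above all 4 others, at 15.9 and 15.8%. The end classes had a difference of -1.85 points (exact permutation p = 0.467). The window that holds 24.7 to 33.0% of all RRBS calls of far windows is in this group, and without it the direction turned, with 11.5 and 9.90% against 9.80 and 8.72% and 14.7 and 14.1% in the middle, a difference of 1.43 points (exact permutation p = 0.578). The difference in windows at 50% or more was 29.9 points above that in windows below 10%, a gap whose direction the grouping favours. With soft-masked sequence left out, the highly methylated windows started lower, at 12.1 and 10.9%, and reached 51.0 and 51.8%, a difference of 39.9 points.

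**Figure D5:**
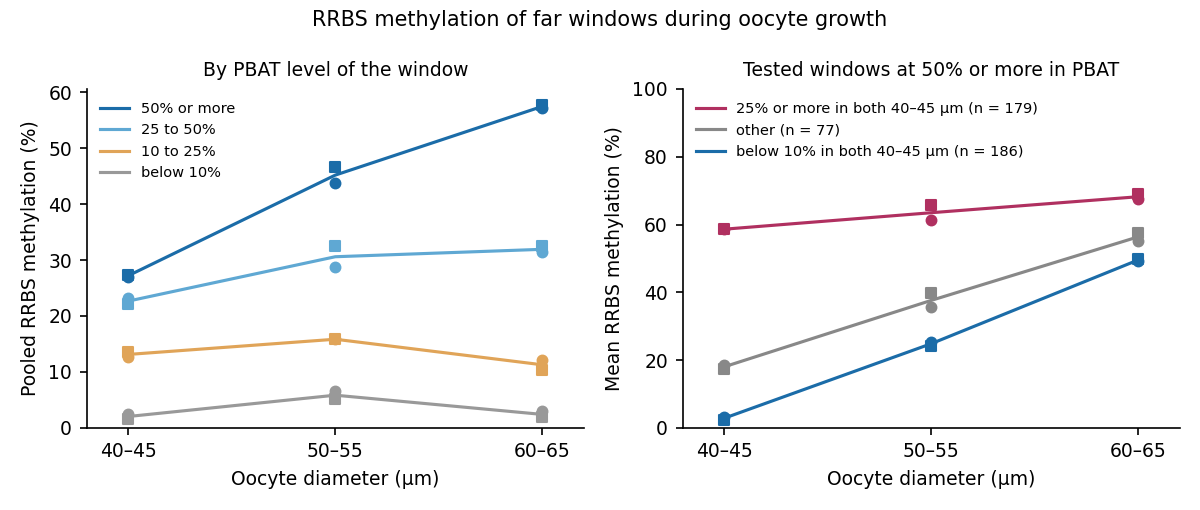
RRBS methylation (y axes, %) of far windows by oocyte diameter (x axes, μm); circles are library A, squares library B and lines join class means. Left: pooled calls of far windows grouped by PBAT level, where windows at 50% or more rise from 27.0–27.3 to 57.2–57.8% and windows below 10% end where they began. Right: mean of the 442 tested windows at 50% or more, grouped by their level at 40–45 μm; 186 began below 10% and 179 at 25% or more, so their starting levels are fixed by the grouping.

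Windows with 20 or more calls in each RRBS library and a mean of at least 5% were tested singly with edgeR's quasi-likelihood test, adjusted over 18738 windows of all classes. Between 40–45 and 60–65 μm, 558 of 3117 far windows (17.9%) gained methylation and 4 lost it, and 58.1% of all windows tested gained and 0.0801% lost. Between 40–45 and 50–55 μm, 361 far windows (11.6%) gained and 1 lost, and 45.0% of all windows gained and 0.00534% lost. Between 50–55 and 60–65 μm none passed in any class (0.0% of all windows), although 196 far windows had an unadjusted p under 0.05 and limma called 0 too. The minimum mean of 5% favours windows that are methylated in some class. Without it, 367 of 7167 far windows (5.12%) and 17.9% of all 51802 windows gained between 40–45 and 60–65 μm, and 0 gained between 40–45 and 50–55 μm (0.0% of all windows), where 729 far windows had an unadjusted p under 0.05. Leaving out 60–65 μm library A or B lowered the gains to 336 or 313 over the whole range (45.3 or 44.0% of all windows) and to 192 or 187 in the first step (31.7 or 31.6%). Without 50–55 μm library A or B the first step had 441 or 243 gains (39.4 or 36.5% of all windows). Without 40–45 μm library A or B it had 476 or 253 (48.3 or 37.4%), and the second step had 69 or 63 far windows (2.21 or 2.02%) beside 13.5 or 12.5% of all windows. Of the 361 gains in the first step, 39 were in windows below 10% in PBAT, the group in which both 50–55 μm libraries were high. Over the whole range there were 11. Over cytosines with calls in all 6 libraries the first step had 10 such gains among 301. The count of 39 also moved in both directions when single libraries were left out. A tested far window had a median of 4 covered cytosines and 173 calls per library, and PCR copies could not be removed from RRBS.

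Among the 442 tested windows at 50% or more in PBAT, 241 (54.5%) gained between 40–45 and 60–65 μm and 0 lost, beside 58.1% of all windows, with the same reservation on the grouping. The count was 163 or 153 without 60–65 μm library A or B and 223 to 245 without one of the others. Of 420 tested windows below 10%, 11 gained (3 without 60–65 μm library A and 25 without 40–45 μm library A, the extremes of leaving out a library) and 1 lost, and these 420 had passed only by reaching a mean of 5% in RRBS. The 442 windows had 2 kinds of start. In both 40–45 μm libraries 186 of them (42.1%) were below 10% and 179 (40.5%) were at 25% or more. The first kind moved from a mean of 3.19 and 2.44% (A and B) to 49.2 and 49.9% at 60–65 μm, and 171 of 186 passed the test as gains. The second kind was at 58.6 and 58.7% at 40–45 μm and at 67.5 and 69.0% at 60–65 μm, and 20 of 179 passed as gains. The starting values enter the test too, so these counts are a description. Soft-masked sequence made up a median of 25.2% of the first kind and 67.6% of the second, a feature that the grouping had not used. The remaining 77 windows lay between, at 18.5 and 17.5%, with 50 gains.

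The 3 called windows with the largest RRBS rise all began at 6.67% or less. In chr12:99550001-99560000 RRBS read 2.76 and 0% in the smallest class, then 49.2 and 39.6%, then 92.3 and 83.8% in the largest (52 to 158 calls; edgeR adjusted p = 0.000863). This window lies in the RefSeq extent of Foxn3, a forkhead transcription factor gene, 99.9 kb beyond its listed extent. In chr13:99060001-99070000, which overlaps no RefSeq gene, the values were 6.67 and 0.648%, then 50.0 and 50.8%, then 89.1 and 89.9% (101 to 772 calls; edgeR adjusted p = 0.000558). In chr10:5190001-5200000, within the RefSeq extent of Syne1, which encodes a nuclear envelope protein, they were 1.94 and 0%, then 32.8 and 53.8%, then 84.9 and 85.4% (103 to 560 calls; edgeR adjusted p = 0.000373). In each window the 3 classes did not overlap.

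These single-window values rest on few sites. In the chr12 stretch printed above, 1 to 5 cytosines were covered per library, all values in the chr13 stretch come from 2 cytosines, and every RRBS library read the chr13 stretch between 98 and 772 times. The PBAT library, which read those stretches with 49 and 2 calls, had 83.7% methylation in the first (interval 70.96 to 91.5%). Over the whole windows PBAT gave 68.2, 61.2 and 65.6%, below the RRBS values at 60–65 μm.

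The far windows that lost methylation between 40–45 and 60–65 μm depended on single libraries, with 0 without 60–65 μm library B, 14 without 40–45 μm library A, 10 or 9 without 50–55 μm library A or B and 2 with the replicate block, in place of 4. These 4, chosen after their values were seen, were at 11.97, 13.0, 4.15 and 18.6% in PBAT. The largest loss was 16.7 points (-16.7; edgeR adjusted p = 0.0375) at chr12:90470001-90480000, from 24.4 and 19.9% to 6.69 and 4.27%. The one with the most calls, beside Rn18s-rs5, moved from 15.0 and 18.3% to 12.6 and 10.9%, a difference of -4.91 points (edgeR adjusted p = 0.0386).

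In the 7170 far windows (9.79%) with 20 or more calls in all 6 RRBS libraries, PBAT and the 60–65 μm RRBS libraries sorted windows alike. Of 448 windows at 50% or more in PBAT, 270 (60.3%) were at 50% or more in both 60–65 μm RRBS libraries and 9 were below 10% in both. Of 3218 windows below 10% in PBAT, 3077 (95.6%) were below 10% in both RRBS libraries and none reached 50% in both. Pearson's r across these windows was 0.816 between PBAT and the mean of the RRBS libraries and 0.939 between the 2 RRBS libraries, which share their cutting sites. The median RRBS level of the windows below 10% was 1.74%, against 59.8% in those at 50% or more.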

How the data were processed

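Oocytes of sorted diameter were profiled by RRBS (6 libraries), PBAT (1) and RNA-seq (9 samples). After trimming with Trim Galore, bisulphite reads were aligned by the authors to GRCm38 with Bismark (0.10.0 and 0.14.0 in the submitters' processing notes). Their deposited files list covered CpG cytosines of either strand with a percent of methylation and counts of methylated and of unmethylated calls. The methods describe removal of duplicate reads for PBAT and none for RRBS. RNA values were deposited as RPKM per gene, made by the authors, and were used only for gene positions and levels.

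Chromosomes 1 to 19 were tiled in 10-kb windows, and a window's level is its methylated calls over all its calls. GC content, CpGs and soft-masked bases came from the GRCm38.p6 RefSeq assembly, and gene overlap from RefSeq release 108 genes. PBAT has no replicate, so windows are described without a test. RRBS pooled values were compared by an exact permutation test over libraries, adjusted by Benjamini-Hochberg over 5 comparisons; since PBAT grouped the windows by their level at the end of growth, these p-values are not used as support. Single windows were tested with edgeR 4.0.16 (quasi-likelihood test on methylated and unmethylated calls, all 6 libraries in 1 fit, adjusted p under 0.05), with limma 3.58.1 as an alternative, in R 4.3.3. The methods state no test for windows. On simulated calls for 40–45 against 60–65 μm with 200 of 18699 windows raised by 30 points, edgeR called 1 of the 200 and limma 108, and with 9369 of 18711 raised, edgeR called 7665 (81.8%) and limma 8558. With no change, both called 0. At these settings the edgeR test can miss changes that few windows share.

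The labels do not say whether replicates A and B came from separate animals, so p-values measure the spread between these libraries. The windows, gene and marker lists were chosen with earlier results of these data known. Named windows are the 6 with the highest lower and the 3 with the lowest upper Wilson bound, the 3 longest runs (of 3 runs of 100 kb, the most methylated) and the 3 called windows with the largest RRBS rise. Genes were named by rule where they lie on either side of the 6 highest windows or, in RefSeq, overlap a named window. Genes beside the longest runs and the lowest windows, the other 100-kb run described and the coding genes with 10 or more methylated windows were added after their values were seen. Python 3.11.15 with numpy 2.4.6, pandas 2.3.3, scipy 1.17.1, statsmodels 0.14.6 and matplotlib 3.10.9 was used.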

Additional observations from a re-analysis of the deposited data

How the results depend on the processing

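The share of far windows at 50% or more, 5.57%, was 6.00% with at least 100 calls, 6.70% as a mean over cytosines with at least 5 reads, 5.06% without windows that overlap a RefSeq gene and 5.01% at 50 kb or more from RefSeq genes too, an alternative chosen after seeing the data. A threshold of 40% gave 9.09% and one of 75% gave 0.396%. The median of 11.97% became 12.05, 12.3, 12.5, 12.1 and 12.6% with 100 calls, 100 kb, 5 reads per cytosine, no RefSeq overlap and 50 kb from RefSeq genes, and 9.47% without soft-masked sequence. The pooled 19.2% became 19.5, 19.97, 20.5, 19.5 and 20.3% in that order, 19.1% without windows of high depth per cytosine and 14.6% without soft-masked sequence. With the windows shifted by 5 kb the share was 5.52%, the median 11.98% and the pooled level 19.2%.

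At 75% in place of 50%, the difference from windows below 10% turned to -10.01 CpGs (SD over autosomes 10.6) and was -0.960 points of GC and 3.91 points of soft-masked bases, and the share with a RefSeq gene was 39.0% in place of 28.3%. The share linked to a listed gene was 4.34% with a limit of 25%.

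The RRBS difference of 30.3 points in windows at 50% or more was positive in all alternatives and was 49.5 points in windows at 75% or more. Leaving out libraries in turn gave 30.0 to 30.6 points there, 29.1 to 30.8 points for the difference between groups and -0.168 to 0.915 points in windows below 10%, where the value without 60–65 μm library A was the negative one. Without either 50–55 μm library no permutation can go below 0.0667, and without both none below 0.333.

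Of single far windows, 361 gained from 40–45 to 50–55 μm (187 to 476 with libraries left out in turn), 558 from 40–45 to 60–65 μm (313 to 633) and 0 from 50–55 to 60–65 μm (0 to 69). The lowest counts came without a 60–65 μm library (192 and 336 without A, 187 and 313 without B), and the calls from 50–55 to 60–65 μm, 69 and 63, came without 40–45 μm library A or B; where 1 library was left in a class, it was taken to vary like the others. Without a minimum mean the counts were 0, 0 and 367. With the replicate letter as a replicate block they were 313, 0 and 520. Deviations of libraries with the same letter correlated by 0.0174 to 0.0327. With few cytosines per window, these values cannot show whether the letters pair the libraries. With 1 PBAT library, no difference between classes of windows could be tested, and far windows with few CpGs had the fewest calls.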
